A study of Mus musculus with 2 samples.

Results

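In mouse testis RNA, 10 proteoglycan genes were followed. They are the 8 small leucine-rich proteoglycan genes Lum, Dcn, Bgn, Fmod, Ogn, Prelp, Aspn and Podn and the 2 large proteoglycan genes Vcan and Hspg2. They were picked by symbol from a table of 18722 loci, in which each symbol matched 1 locus. The first library came from testis of male C57BL/6J with the genotype label Dmrt1 knockdown, given a short hairpin RNA against Dmrt1 (shDmrt1). It was set against testis of male C57BL/6J with the genotype label WT, given a control hairpin (shControl). Both were taken at 16 weeks of age. Dmrt1 encodes a DNA-binding regulator that keeps Sertoli cells male and that spermatogonia also make. Each group is 1 library. Neither its number of animals nor the cells that took up the hairpin are given in the labels.

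Proteoglycans are core proteins that carry long sulphated sugar chains, the glycosaminoglycans, and they fill the space between cells and collagen fibres. The small leucine-rich members bind collagen and set the width and spacing of its fibrils, and decorin and biglycan also bind growth factors of the TGF-beta family. Versican holds hyaluronan in soft, expanding matrix, and perlecan, the product of Hspg2, is a heparan sulphate proteoglycan of basement membranes such as those around seminiferous tubules and vessels. Fibroblasts and other stromal cells are the usual source of the small leucine-rich members.

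The shDmrt1 library held 24594371 counts and the shControl library 17846426. Every value below compares these 2 libraries, with no replicate check and no test between the conditions. Ratios are shDmrt1 over shControl on counts scaled with TMM factors, which assume that most genes do not differ, and each comes with its 95% counting interval. A gene is called higher or lower where that whole interval lay beyond 2-fold. By this rule 17.8% of the 15104 loci with at least 1 CPM (counts scaled to the library total) in 1 library were higher and 20.8% were lower. Scaling by library totals moved the log2 ratios of all these loci down by 0.44 at the median, so values on that scale are given where they change the call or sign of a named gene or the counts of a list. The targeted gene Dmrt1 had 39 counts in the shDmrt1 and 852 in the shControl library. Leydig, Sertoli and germ cell markers were lower in the shDmrt1 library, and macrophage and fibroblast markers were mostly higher. The 5 germ cell markers summed to only 58.6 CPM in the shControl library, so ratios are against a library poor in these transcripts. In such bulk RNA, fewer cells of a type and less RNA per cell cannot be told apart.

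Of the 10 genes, 6, namely Lum, Fmod, Bgn, Vcan, Podn and Dcn, were higher in the shDmrt1 library and none was lower. Of all 15104 loci, 17.8% were higher and 20.8% lower. Aspn, Prelp, Hspg2 and Ogn were neither. All 10 had at least 1 CPM in both libraries, so none entered through 1 library alone. Their median log2 ratio was 1.29, beside -0.02 over all 15104 loci, and single genes ran between -0.33 for Ogn and 4.93 for Lum. With library totals the median was 0.85, beside -0.46 over all loci. On that scale 4 of the 10 were higher, beside 1922 of the 15104 loci. The authors' deposited table calls 3 of the 10 up, namely Lum, Bgn and Fmod, where it calls 10.5% of loci up and 14.2% down. It calls Dcn, Podn and Vcan normal, unlike the rule used here. Those calls also compare 1 library per group.

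**Figure D1:**
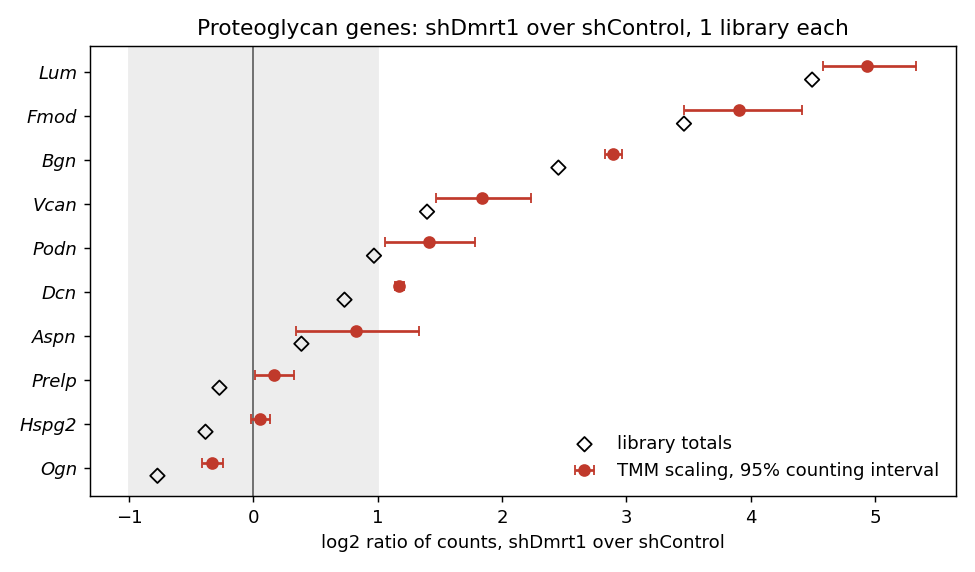
Log2 ratio of counts, shDmrt1 over shControl, for the 10 proteoglycan genes on the x axis, with 1 library per group. Red points are TMM-scaled ratios with their 95% counting interval, open diamonds are ratios scaled by library totals, and the grey band spans 2-fold in either direction. The 6 genes whose red interval lies right of the band are Lum, Fmod, Bgn, Vcan, Podn and Dcn, and for Podn and Dcn the diamond lies inside it.

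Class I of the small leucine-rich family holds decorin, biglycan and asporin. Dcn encodes decorin, which carries a chondroitin or dermatan sulphate chain and coats collagen fibrils. Dcn (ENSMUSG00000019929, chromosome 10, 97479609 to 97518143 on GRCm38, plus strand) had 17968 counts in the shDmrt1 library, against 7849 in the shControl library. That was 731 CPM in shDmrt1 and 440 CPM in shControl testis. The scaled ratio was 2.26-fold, a log2 ratio of 1.17 (1.14 to 1.21). With library totals it was 1.66-fold and no longer past 2-fold. Bgn encodes biglycan, a close relative of decorin that also acts on Toll-like receptors when released from matrix. Bgn (ENSMUSG00000031375, chromosome X, 73483602 to 73495933, plus strand) had 15452 counts in the shDmrt1 library and 2047 in the shControl library. Its ratio was 7.44-fold, a log2 ratio of 2.90 (2.83 to 2.96), and 5.48-fold with library totals. The difference was therefore larger for biglycan than for decorin on either scale. Aspn encodes asporin, which lacks a glycosaminoglycan chain and restrains TGF-beta. Aspn (ENSMUSG00000021388, chromosome 13, 49544443 to 49567565, plus strand) had 101 counts in the shDmrt1 library and 56 in the shControl library. Its log2 ratio of 0.82 had an interval of 0.35 to 1.33, which crosses the 2-fold line.

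The promoter of Bgn is shown because Bgn had the largest ratio in class I, with the 300 bases around its start (RefSeq, GRCm38.p6, chrX:73483351-73483650, plus strand, 250 before and 50 after the start). Capitals mark GC boxes, the letters GGGCGG on either strand.
Bgn promoter: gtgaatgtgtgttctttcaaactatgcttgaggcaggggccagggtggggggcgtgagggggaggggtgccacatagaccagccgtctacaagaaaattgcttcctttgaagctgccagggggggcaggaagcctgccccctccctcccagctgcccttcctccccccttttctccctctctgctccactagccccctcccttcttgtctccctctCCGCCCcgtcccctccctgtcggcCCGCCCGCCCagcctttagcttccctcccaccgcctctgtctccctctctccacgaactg
It held 3 GC boxes, of which 2 overlap each other, the first of the 3 beginning 34 bases before the start. A GC box stood in 35.7% of the 32851 promoters searched.

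Class II held the 2 highest ratios of the 10 genes and also one near 0. Lum encodes lumican, a keratan sulphate proteoglycan known for the transparency of the cornea and also made by fibroblasts. Lum (ENSMUSG00000036446, chromosome 10, 97565128 to 97572703, plus strand) had 1969 counts in the shDmrt1 library and 63 in the shControl library. Its level was 80.1 CPM in shDmrt1 and 3.53 CPM in shControl testis. The log2 ratio of 4.93 (4.58 to 5.33) had rank 262 among the 15104 loci. Fmod encodes fibromodulin, which shares a collagen binding site with lumican. Fmod (ENSMUSG00000041559, chromosome 1, 134037254 to 134048277, plus strand) had 629 counts in the shDmrt1 library and 41 in the shControl library. Its ratio was 15.0-fold, a log2 ratio of 3.90 (3.46 to 4.41), at rank 460. Prelp encodes a protein that anchors basement membranes to connective tissue. Prelp (ENSMUSG00000041577, chromosome 1, 133910304 to 133921414, minus strand) had 743 counts in the shDmrt1 library and 652 in the shControl library. Its log2 ratio was 0.17 (0.01 to 0.32), which turned to -0.27 with library totals. Lum and Fmod, scarce in the shControl library, thus stood far above Prelp in their ratio, while Prelp had nearly the same count in both.

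The other small leucine-rich members were split as well. Ogn encodes osteoglycin, also called mimecan, of class III. Ogn (ENSMUSG00000021390, chromosome 13, 49608046 to 49624501, plus strand) had 1985 counts in the shDmrt1 library and 2461 in the shControl library. Its log2 ratio of -0.33 (-0.42 to -0.24) was the only one of the 10 below 0, and it was -0.77 with library totals. Podn encodes podocan, of class V. Podn (ENSMUSG00000028600, chromosome 4, 108014791 to 108096445, minus strand) had 238 counts in the shDmrt1 library and 88 in the shControl library. Its log2 ratio was 1.41 (1.06 to 1.78), and 0.97 with library totals, where it was not past 2-fold. The annotated extent of Podn overlaps that of Scp2 on the same strand. Whether their exons overlap, so that reads of one could be counted for the other, was not checked. Scp2 had 3077 counts in the shDmrt1 library and 3668 in the shControl library.

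Among the large proteoglycans, the hyaluronan-binding one was higher and the basement membrane one was not past the rule. Vcan (ENSMUSG00000021614, chromosome 13, 89655312 to 89742509, minus strand) had 273 counts in the shDmrt1 library and 75 in the shControl library. Its log2 ratio was 1.84 (1.47 to 2.23), and with library totals it was 1.40 and still past 2-fold. Hspg2 (ENSMUSG00000028763, chromosome 4, 137468769 to 137570630, plus strand) had 2751 counts in the shDmrt1 library and 2609 in the shControl library. Its log2 ratio was 0.06 (-0.02 to 0.13) by counts, -0.39 with library totals and 0.61 by the authors' FPKM values. For Hspg2 the sign therefore rests on the scaling, and the counts and the FPKM values of the deposited table part ways. The count behind 1 FPKM was 0.69 times as large in the shDmrt1 as in the shControl library for Hspg2 and 0.74 times for Vcan. For 11568 loci with at least 50 counts in both libraries that quotient had a median of 0.996, and 90% of them lay between 0.80 and 1.18. How the authors took transcript lengths is not given in the sources used here.

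Levels can be set side by side between genes only per length, so the deposited FPKM values were used for the order within each library. By name, FPKM scales reads to transcript length and library size. Here the library totals were 24594371 for shDmrt1 and 17846426 for shControl, yet the count behind 1 FPKM had a median quotient of 0.996. The deposited values therefore did not follow these totals between the libraries. Their intervals are exact Poisson intervals of the count. In the shDmrt1 library Dcn led with 566 FPKM, then Bgn with 354, Lum with 43.4, Ogn with 43.2 and Hspg2 with 30.9. Lower came Fmod with 12.0 FPKM, Prelp with 9.76, Podn with 3.86, Vcan with 3.0 and Aspn with 2.27. The intervals of Lum and Ogn overlapped there, as did those of Vcan and Aspn. Such an overlap does not show that 2 genes were level, and these gaps were not tested. In the shControl library Dcn led with 251 FPKM, then Ogn with 53.0, Bgn with 47.7, Hspg2 with 20.2 and Prelp with 8.53. Podn with 1.62, Lum with 1.43 and Aspn with 1.40 FPKM followed. The interval of Podn overlapped that of Lum, and the interval of Lum that of Aspn. Then came Fmod with 0.659 and Vcan with 0.614, whose intervals also overlapped. Lum had place 3 in the shDmrt1 order and place 7 in the shControl order, and Bgn had place 2 in shDmrt1 and place 3 in shControl testis.

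**Figure D2:**
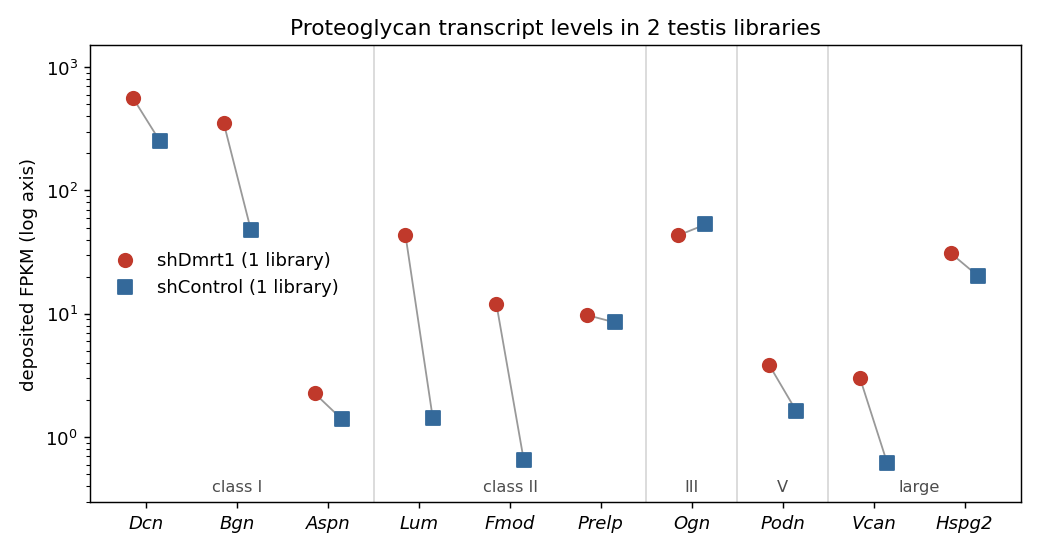
Deposited FPKM (y axis, log scale) of the 10 proteoglycan genes in the shDmrt1 library (red circles) and the shControl library (blue squares), grouped by class. Dcn is the highest gene in both libraries, at 566 FPKM in shDmrt1 and 251 FPKM in shControl testis, while Lum stands at 43.4 FPKM in shDmrt1 and 1.43 FPKM in shControl testis.

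The make-up of the proteoglycan transcripts differed between the libraries, and shares within a library do not depend on the scaling. Summed over the 10 genes, FPKM came to 1069 in the shDmrt1 and 386 in the shControl library. A sum set between libraries does depend on the scaling. In CPM it was 1712 in the shDmrt1 and 893 in the shControl library. The shares below are of the FPKM sum. Dcn held 53.0% of the FPKM sum in shDmrt1 and 65.0% in shControl testis. Bgn held 33.1% in shDmrt1 and 12.4% in shControl testis. Ogn held 4.05% in shDmrt1 and 13.7% in shControl testis. Lum held 4.06% in shDmrt1 and 0.371% in shControl testis. Dcn and Bgn together held 86.1% in shDmrt1 and 77.3% in shControl testis, so a pair of class I genes made up most of the transcripts in both. By counts, Bgn reached 0.86 of Dcn in shDmrt1 and 0.26 of Dcn in shControl testis, a 3.30-fold gap (95% counting interval 3.13 to 3.48).

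**Figure D3:**
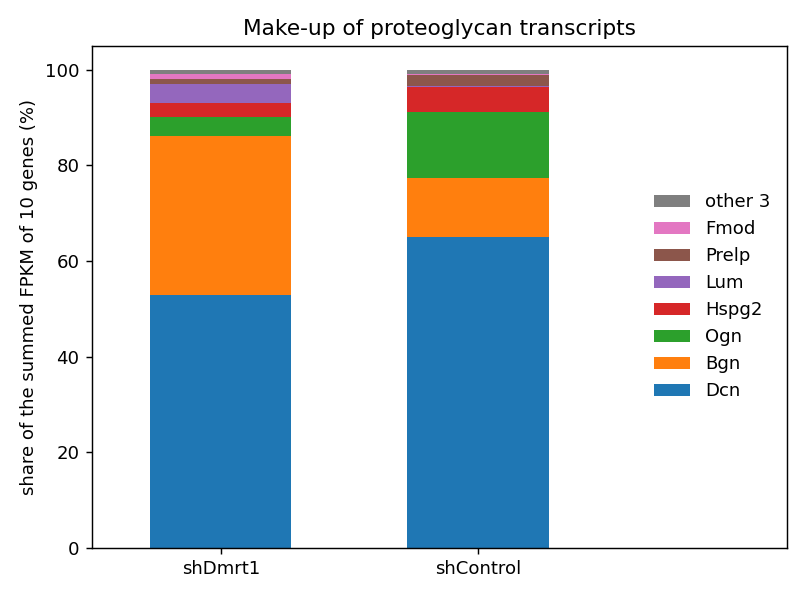
Share of the summed FPKM of the 10 genes (y axis, percent) held by each gene in the shDmrt1 library (left bar) and the shControl library (right bar), with Aspn, Podn and Vcan joined as the other 3. Bgn takes 33.1% of the left bar and 12.4% of the right, and Ogn 4.05% of the left and 13.7% of the right.

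Small leucine-rich genes lie in clusters in the mouse genome, and neighbours differed in their ratios. On chromosome 10, Dcn and Lum lie on the same strand with 47.0 kb between them. Lum counts were 0.110 of the Dcn counts in shDmrt1 and 0.00803 in shControl testis, a 13.7-fold gap (10.6 to 17.9). Epyc, a class III gene at the far end of that cluster, had 9 counts in the shDmrt1 and 144 in the shControl library and was lower, at a log2 ratio of -3.95 (-5.18 to -3.06). Kera, between Lum and Epyc, was not analysed here. On chromosome 1, Prelp and Fmod are read away from each other with 116 kb between them. Fmod counts were 0.847 of the Prelp counts in shDmrt1 and 0.0629 in shControl testis, a 13.4-fold gap (9.61 to 19.3). Optc, beside Prelp, had 1 count in the shDmrt1 and 10 in the shControl library and did not reach 1 CPM in either. On chromosome 13, Ecm2, Aspn, Omd and Ogn lie in a row on 1 strand within 120 kb. Omd, which encodes osteomodulin, had 33 counts in the shDmrt1 and 149 in the shControl library and was lower, at -2.18 (-2.79 to -1.64). Ecm2 was at -0.96 (-1.14 to -0.79), which was neither, and at -1.40 with library totals, where it was lower. Aspn counts were 0.0509 of the Ogn counts in shDmrt1 and 0.0228 in shControl testis, a 2.24-fold gap (1.59 to 3.17). Aspn and Ogn lie inside Cenpp, a gene on the other strand with 44 counts in the shDmrt1 and 62 in the shControl library. Which strand was counted is not given in the sources used here.

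**Figure D4:**
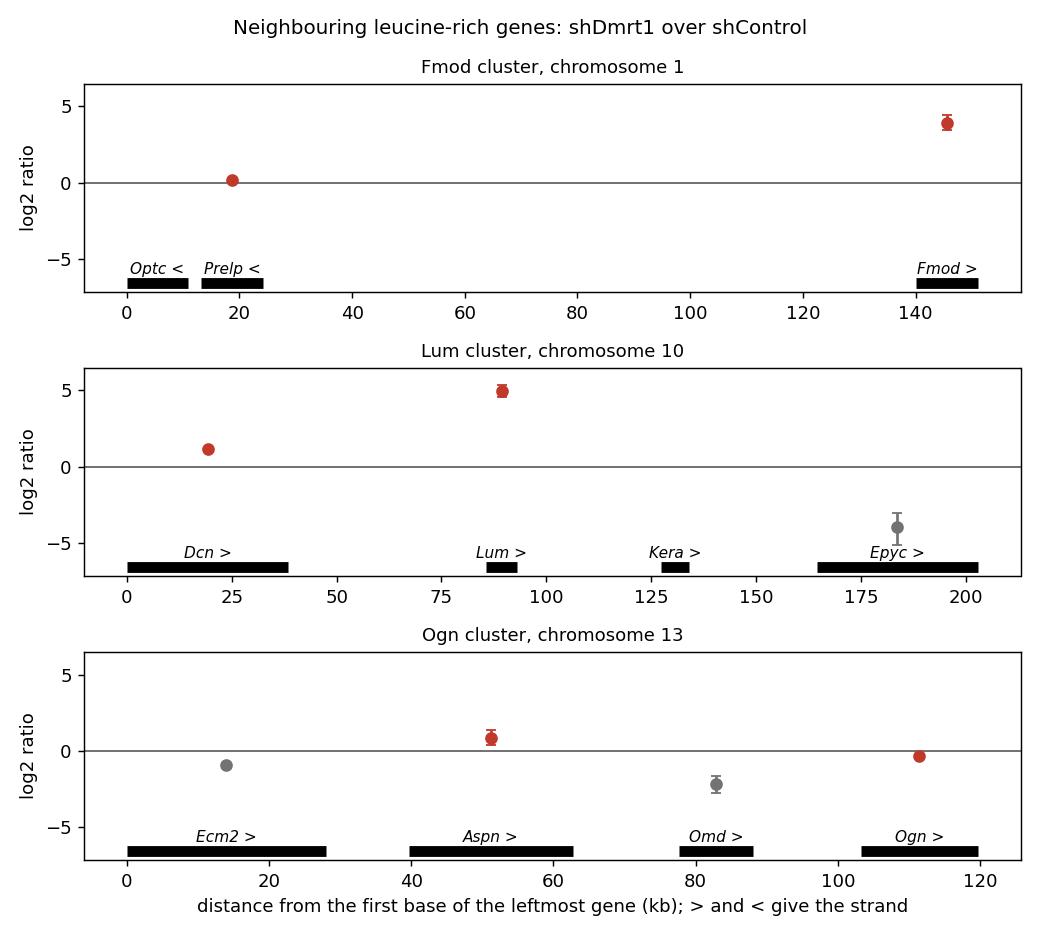
Log2 ratio of counts, shDmrt1 over shControl (y axis), for measured genes of 3 clusters of leucine-rich genes, placed by distance in kb along the chromosome (x axis). Black bars are gene extents, red points are genes of the 10 studied, grey points are other cluster genes, and error bars are 95% counting intervals. Lum at 4.93 lies between Dcn at 1.17 and Epyc at -3.95, and Fmod at 3.90 faces Prelp at 0.17.

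The promoters of Fmod and Prelp are shown as the pair of neighbours in 1 cluster with unlike ratios, and that of Ogn as the gene with a ratio below 0. All are RefSeq windows on GRCm38.p6 of 300 bases, at chr1:134037004-134037303 (plus strand), chr1:133921352-133921651 (minus strand) and chr13:49607765-49608064 (plus strand). Capitals mark TATAAA or its reverse complement.
Fmod promoter: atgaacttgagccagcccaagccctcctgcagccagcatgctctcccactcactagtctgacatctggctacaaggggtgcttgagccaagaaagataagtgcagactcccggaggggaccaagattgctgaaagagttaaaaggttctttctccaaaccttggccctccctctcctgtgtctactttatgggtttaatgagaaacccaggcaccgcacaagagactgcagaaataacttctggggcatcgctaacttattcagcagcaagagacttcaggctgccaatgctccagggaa
Prelp promoter: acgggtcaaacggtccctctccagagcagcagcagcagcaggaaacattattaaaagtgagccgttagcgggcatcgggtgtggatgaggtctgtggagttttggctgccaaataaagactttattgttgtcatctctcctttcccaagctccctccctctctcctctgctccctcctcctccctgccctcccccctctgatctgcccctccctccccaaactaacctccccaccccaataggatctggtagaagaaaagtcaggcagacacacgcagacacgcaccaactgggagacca
Ogn promoter: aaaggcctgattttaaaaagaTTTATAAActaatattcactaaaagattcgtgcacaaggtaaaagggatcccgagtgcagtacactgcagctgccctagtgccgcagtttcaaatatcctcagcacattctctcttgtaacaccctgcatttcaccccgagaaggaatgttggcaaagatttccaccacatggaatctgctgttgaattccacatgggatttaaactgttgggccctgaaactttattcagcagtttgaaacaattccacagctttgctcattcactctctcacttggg
In all, 4 motifs were searched on both strands: TATAAA, the GC box GGGCGG, an AP-1 site TGANTCA and ACANTGT, used here as a core of Dmrt1 sites. The Fmod and Prelp windows held none of them. The Ogn window held 2 overlapping TATAAA matches, on opposite strands, more than 200 bases before the start. Of the 8 of 10 genes with a window in the table, none held the AP-1 or ACANTGT letters, which stood in 7.81% and 7.54% of all 32851 windows. Lum and Dcn had no window. GC boxes stood in the windows of Bgn, Vcan and Hspg2, and TATAAA in those of Aspn and Ogn, against 13.6% of all windows for TATAAA. For Podn, the window at chr4:108031905-108032204 held 2 GC boxes and that at chr4:108030937-108031236 held 0.

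Genes that make, hold or cut these proteoglycans were taken from 10 lists. Of 130 genes on them, 128 were found and 111 measured, of which 35 were higher, 25 lower and 51 neither. Each count of a list stands beside 17.8% of all 15104 loci higher and 20.8% lower. With library totals 1922 of these loci were higher and 4202 lower. Their median log2 ratio was 0.26, or -0.17 with library totals, beside -0.02 and -0.46 over all loci. Among 8 measured other small leucine-rich genes, 1 was higher and 4 lower, or 1 and 5 with library totals. Their median was -1.17. Podnl1, a relative of podocan, had 519 counts in the shDmrt1 and 79 in the shControl library, a log2 ratio of 2.69. Nyx, which encodes nyctalopin of the retina, had 2 counts in the shDmrt1 and 172 in the shControl library, a log2 ratio of -6.13 (-9.50 to -4.57). Of 8 measured other secreted proteoglycans, 3 were higher and 2 lower, and the median was 0.49. With library totals 2 were higher and 3 lower, and the median was 0.06. Srgn, which encodes the serglycin of immune cell granules, was at 2.60 and Agrn, which encodes agrin of basement membranes, at 1.63. Acan, which encodes the aggrecan of cartilage, had 11 counts in the shDmrt1 and 275 in the shControl library, a log2 ratio of -4.60 (-5.68 to -3.80). Spock2 was at -2.78. The small leucine-rich genes therefore did not go one way, since 5 of the 8 studied were higher while 4 of 8 measured relatives were lower. With library totals these were 3 of 8 higher and 5 of 8 lower.

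Proteoglycans of the cell surface also went both ways, with 6 of 13 higher, 3 lower and a median of 0.30, or 5 higher, 3 lower and a median of -0.14 with library totals. The hyaluronan receptor gene Cd44 had 10670 counts in the shDmrt1 and 630 in the shControl library, a log2 ratio of 4.06. The syndecan gene Sdc1 was at 2.83 and the glypican gene Gpc1 at 2.32, whereas the glypican gene Gpc4 was at -2.84. In the hyaluronan system 5 of 11 were higher and 2 lower, or 4 and 2 with library totals. Lyve1, the hyaluronan receptor of lymphatic vessels and some macrophages, was at 4.20. Ptx3, which cross-links hyaluronan, had 87 counts in the shDmrt1 and 7 in the shControl library, a log2 ratio of 3.52 (2.51 to 4.97). The synthase gene Has2 had 49 counts in the shDmrt1 and 1 in the shControl library, a log2 ratio of 5.03 (3.05 to 10.93).

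Of 43 measured enzymes that build or trim the sugar chains, 6 (14.0%) were higher and 11 (25.6%) lower, near the 17.8% and 20.8% of all loci. With library totals 5 were higher and 11 lower. Of 7 genes for the linker that chondroitin, dermatan and heparan sulphate chains share, none was higher and 1 was lower, the phosphatase gene Pxylp1 at -1.62. The xylosyltransferase genes Xylt1 and Xylt2 were at 0.60 and 0.56. Of 14 measured chondroitin and dermatan sulphate genes, 4 were higher and 3 lower, or 3 and 3 with library totals, and the median was 0.45, or 0.01 with library totals. The sulphotransferase genes Chst11, Chst12 and Chst14 were at 2.47, 2.37 and 1.75, and the polymerising factor gene Chpf was at -2.23. Of 17 measured heparan sulphate genes, 1 was higher and 6 lower, and the median was -0.35. The sulphotransferase genes Hs6st2 and Hs3st1 were at 2.74 and -3.17, and Extl1 at -2.38. Hs6st3 had 0 counts in the shDmrt1 and 39 in the shControl library, 13.2-fold lower if 3 counts are put in place of the 0. Its counting interval lay below a log2 ratio of -3.35. Of 5 keratan sulphate genes, 1 was higher and 1 lower, and the median was -0.10. B3gnt7, which extends keratan chains, had 435 counts in the shDmrt1 and 18 in the shControl library, a log2 ratio of 4.54. Chst5 had 0 counts in the shDmrt1 and 25 in the shControl library, 8.45-fold lower with the same 3 counts put in. Its counting interval lay below a log2 ratio of -2.67. Chst1 was at 0.34, or -0.10 with library totals, and Chst2 at -0.58.

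Among 12 measured proteases and sugar-cutting enzymes of proteoglycans, 4 were higher and 1 lower, or 4 and 2 with library totals, and the median was 0.54. Beside this, 17.8% of all 15104 loci were higher and 20.8% lower. The metalloprotease genes Mmp3 and Mmp14 were at 6.23 and 2.44, and the heparanase gene Hpse, whose product cuts heparan sulphate, had 7228 counts in the shDmrt1 and 401 in the shControl library, a log2 ratio of 4.15. Mmp13 had 133 counts in the shDmrt1 and 1 in the shControl library, a log2 ratio of 6.46 (4.53 to 12.35). Of 17 binding partners and receptors, 11 were higher and 2 lower, or 10 and 2 with library totals, and the median was 2.12. The fibril collagen genes Col1a1 and Col3a1 were at 4.30 and 4.16. The receptor gene Met, whose product binds decorin, had 3212 counts in the shDmrt1 and 48 in the shControl library, a log2 ratio of 6.03, and Tlr2 was at 4.56.

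**Figure D5:**
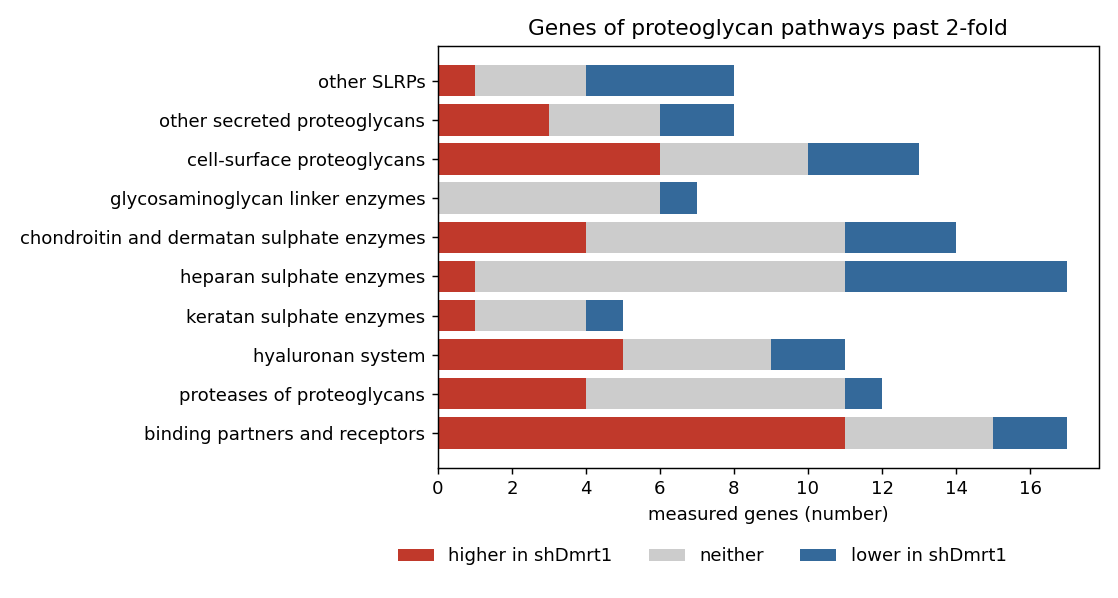
Number of measured genes (x axis) in 10 lists of proteoglycan pathways that were more than 2-fold higher in the shDmrt1 library over the whole counting interval (red), neither (grey) or more than 2-fold lower (blue). Binding partners and receptors have 11 of 17 higher, and heparan sulphate enzymes have 6 of 17 lower, beside 17.8% of all 15104 loci higher and 20.8% lower.

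Markers of the cells that could hold these transcripts differed between the libraries too. The calls below are on the TMM scale unless stated, and by that rule 17.8% of all 15104 loci were higher and 20.8% lower. The CPM sums are on library totals, a scale that put the log2 ratios of all loci 0.44 lower at the median. Sums and calls are therefore not on 1 scale, and a small gap between sums can rest on the scaling. Of 9 fibroblast markers, 6 were higher and none lower (with library totals Pdgfra was lower), and they summed to 7535 CPM in shDmrt1 and 1013 CPM in shControl testis. The 3 collagen genes among them, Col1a1, Col1a2 and Col3a1, held 7213 CPM in shDmrt1 and 684 CPM in shControl testis, and the other 6 summed to 322 CPM in shDmrt1 and 328 CPM in shControl testis. Dpt, Thy1 and Pi16 were at 3.89, 3.01 and 1.89, while Pdgfra, Cd34 and Tcf21, at -0.75, -0.48 and 0.44, were neither. With library totals Pdgfra was at -1.19 and Tcf21 at -0.003. Of 6 endothelial markers 3 were higher and none lower, with a sum of 212 CPM in shDmrt1 and 85.8 CPM in shControl testis. Of 5 peritubular myoid markers 1 was higher and none lower, or none higher and 1 lower with library totals, with a sum of 182 CPM in shDmrt1 and 239 CPM in shControl testis. Of 5 pericyte markers 1 was higher, with a sum of 76.0 CPM in shDmrt1 and 58.6 CPM in shControl testis. Of 4 mesothelium markers 3 were higher and 1 lower, with a sum of 30.9 CPM in shDmrt1 and 40.6 CPM in shControl testis. The lower one, Lrrn4, held 7.97 CPM in shDmrt1 and 35.2 CPM in shControl testis, and the other 3 summed to 23.0 CPM in shDmrt1 and 5.32 CPM in shControl testis. All 4 macrophage markers analysed were higher, with a sum of 2918 CPM in shDmrt1 and 290 CPM in shControl testis. All 5 Leydig markers were lower, summing to 213 CPM in shDmrt1 and 21449 CPM in shControl testis, and all 5 Sertoli markers were lower, summing to 69.8 CPM in shDmrt1 and 507 CPM in shControl testis. All 4 measured germ cell markers were lower, the 5 together summing to 1.63 CPM in shDmrt1 and 58.6 CPM in shControl testis. In the shControl library Dazl was at 28.2 CPM, Ddx4 at 21.5, Sycp3 at 5.55, Prm1 at 2.41 and Acrv1 at 0.841. The reference library was thus itself poor in these transcripts, for a reason that was not tested. Acrv1 had 0 counts in the shDmrt1 library. None of the other markers was at 0 in either library. The part of these markers in the proteoglycan ratios was not tested.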

How the data were processed

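RNA of 2 mouse testis libraries was measured by stranded mRNA sequencing after TRIzol extraction, per the labels' protocols. STAR 2.5.3a, Subread 1.5.1, featureCounts, DESeq, edgeR 3.12.1 and Trimmomatic 0.36 are listed in the submitters' processing notes beside the build mm10, without a role. The authors' deposited table holds raw counts and FPKM per locus, per the file headers, and the authors' EBSeq log2 fold changes and calls. Gene positions are from GENCODE M21 (GRCm38).

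Counts were scaled with TMM factors over all loci (edgeR 4.0.16, R 4.3.3), 0.858 for shDmrt1 and 1.17 for shControl. Log2 ratios used a prior count of 0.5, and 95% Clopper-Pearson intervals were taken on the shDmrt1 share of both counts, covering counting error only, since reads carry no molecular identifiers here. Gaps between 2 genes are conditional odds ratios with exact intervals (scipy 1.17.1). FPKM ratios used a pseudocount of 0.1. A gene at 0 counts has a fold against 3 counts in that library. That fold takes the other count as exact, so it is not a lower limit. With 1 library per group no test was run. On simulated data for this comparison, of 15104 genes, 96% of 100 genes changed 4-fold passed the rule, 2% of 100 changed 2-fold and none of 14904 unchanged ones, with Poisson error only. The changed genes were few and split evenly between higher and lower. The simulation therefore checks neither the scaling nor the spread between animals.

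Members and lists were chosen with earlier results of these data known. Named are all members, the genes beside them in clusters, and up to 4 measured genes per pathway list whose interval bound nearest 0 lay farthest from 0 (only those whose interval excludes 0). Alternatives were size factors of DESeq2 1.42.0, library totals, FPKM, a larger prior count (5), filters and other fold rules.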

Additional observations from a re-analysis of the deposited data

How the results depend on the processing

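No paired analysis was possible because there is 1 library per group. Leaving out a library was likewise not possible. Scaling by library totals lowered the median log2 ratio of the 10 genes to 0.85, moved 8 of the 10 ratios beyond their counting interval, ended the calls of Dcn and Podn and turned Prelp and Hspg2 below 0. Across all loci it left 1922 higher and 4202 lower, so that 31.4% of called loci were higher, against 46.1% with TMM. DESeq2 size factors and a prior count of 5 left all 10 ratios inside their intervals. FPKM moved 1 ratio, that of Hspg2, to 0.61. The 6 calls among the 10 genes were the same genes with DESeq2 size factors, FPKM, a 1.5-fold rule and point estimates. Dcn was at 1.18 by FPKM, 1.17 with TMM and 0.73 with library totals. The FPKM values stood near the TMM scale, so they are no separate check on the scaling. Counts of pathway genes and of all loci stayed within 1.5 times under every filter and rule tried. Depth limits Aspn, Fmod, Lum, Vcan and Podn most, with 41 to 88 counts in the shControl library.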
